A study of Mus musculus with 6 samples.

Results

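The genes described here are 10 early response genes of 3 groups, taken by symbol from the deposited count table: Ier2, Ier3, Ier5 and Ier5l, Btg1, Btg2 and Btg3, and Zfp36, Zfp36l1 and Zfp36l2. All 10 symbols were found among its 37411 gene rows, and all 10 passed the filter on low counts that left 16233 genes to test. RNA came from primary hippocampal neurons of CD-1 IGS mouse pups, cultured from postnatal day 0 and collected at 16 days in vitro. For 30 min, 3 cultures received 50 µM forskolin (libraries 4, 5 and 6) and 3 received the same volume of its solvent DMSO (libraries 1, 2 and 3). The question is which mRNAs respond within this time to raised cyclic AMP. The labels do not say whether the cultures came from separate litters or dissections, so the p-values measure only the spread between these libraries.

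Forskolin activates adenylyl cyclase directly; the cyclic AMP made by that enzyme activates protein kinase A, which phosphorylates the transcription factor CREB on genes that carry a cyclic AMP response element (CRE). Immediate early genes are transcribed within minutes of such a signal without new protein synthesis, and many of their mRNAs are short-lived. Ier2, Ier5 and Ier5l encode nuclear proteins with a shared N-terminal domain, and Ier5 is known for binding protein phosphatase 2A and the heat shock factor Hsf1; Ier3 is an unrelated stress-induced survival factor. The Btg proteins are antiproliferative adaptors that bind the Caf1 deadenylases of the CCR4-NOT complex, which shortens poly(A) tails. The Zfp36 proteins are zinc finger proteins that bind AU-rich elements in 3′ untranslated regions and bring the same complex to those mRNAs.

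Total counts ranged from 28342764 to 35304310 with DMSO and from 34139191 to 47548379 with forskolin, and no pair of libraries was alike within counting error. Mitochondrially encoded genes took 14.7, 24.6 and 20.9% of counts with DMSO and 30.5, 34.6 and 27.8% with forskolin, so this share was above all controls in each treated library, library 6 included; its part in the results was not tested, beyond the fit without these genes given below. Library 6 stood apart from the other forskolin libraries: across tested genes, Pearson's r of its log2 CPM (counts per unit of library size, scaled by the TMM method) was 0.983 with control library 3 but 0.943 and 0.940 with libraries 4 and 5. The summed CPM of 12 microglia markers was 23.0 to 35.3 with DMSO, 227 in library 4, 377 in library 5 and 25.1 in library 6; none of the 12 was at 0 in any library, and 11 of 11 tested had a positive fitted change. Neuron markers (12 of 12 detected in every library) summed to between 4291 and 5500 CPM with DMSO, and with forskolin to 3238, 3501 and 5145 CPM. The sum in library 6 lay among the controls. Of the 12, 6 were lower in all 3 treated libraries than in any control, and 6 had a lower fitted level at an unadjusted p-value under 0.05. Of all tested genes, 22.3% had such a p-value in either direction. The share of all genes lower in every treated library is not given here, so these counts are not read as particular to neurons. Lower calls by edgeR numbered 217 over the 16233 tested genes and 1 among the 12. That gene, Rbfox3, which encodes the neuronal marker NeuN, had 69.2, 84.5 and 80.2 CPM with DMSO and 37.8, 42.8 and 47.2 CPM with forskolin (adjusted p = 0.0392 by edgeR). Astrocyte markers, such as Gfap and Slc1a3, summed to 7146 to 7868 CPM with DMSO and 7069 to 8673 CPM with forskolin, so the cultures held much glial RNA in both groups. The markers of the oligodendrocyte lineage summed to 822 to 913 CPM with DMSO and with forskolin to 1077, 1560 and 647 CPM. In such bulk RNA, fewer cells of a type and less RNA per cell cannot be told apart. Each gene is therefore given below with and without library 6, and for library 6 alone.

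Btg2 and Btg1 were the only 2 of the 10 genes to exceed all controls in each of the 3 treated libraries, and were picked by these values. Their promoters and that of Zfp36 are shown for the motif letters in them. Whether such letters go with the response was not tested. The sequences are the 250 bases before the RefSeq start in GRCm38.p6, each 5′ to 3′ on the gene's own strand. Capitals mark the CRE half-site TGACG on either strand, the TATA box TATAAA and the CArG box, the site of serum response factor.
Btg2 (chr1:134079156-134079405, minus strand): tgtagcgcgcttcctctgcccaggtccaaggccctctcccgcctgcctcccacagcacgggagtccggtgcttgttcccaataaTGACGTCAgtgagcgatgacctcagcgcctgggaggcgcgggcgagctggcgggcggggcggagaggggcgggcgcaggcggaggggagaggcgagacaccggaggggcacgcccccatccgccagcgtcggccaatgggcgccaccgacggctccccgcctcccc
Btg1 (chr10:96616751-96617000, plus strand): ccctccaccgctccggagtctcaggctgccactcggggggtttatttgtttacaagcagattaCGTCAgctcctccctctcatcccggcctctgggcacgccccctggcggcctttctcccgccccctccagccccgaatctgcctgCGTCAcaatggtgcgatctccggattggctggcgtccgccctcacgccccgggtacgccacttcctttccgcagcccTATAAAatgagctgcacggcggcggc
Zfp36 (chr7:28379229-28379478, minus strand): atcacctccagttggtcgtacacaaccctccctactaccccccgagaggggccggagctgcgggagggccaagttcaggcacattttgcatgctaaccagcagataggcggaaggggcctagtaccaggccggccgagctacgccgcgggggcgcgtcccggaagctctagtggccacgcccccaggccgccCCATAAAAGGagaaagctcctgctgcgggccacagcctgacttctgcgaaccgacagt
In Btg2 the capitals form the full palindromic CRE, TGACGTCA, which begins at -166 from the start. Btg1 has 2 separate half-sites on the opposite strand, at -187 and -103, and a TATA box at -26. RefSeq windows of 300 bases (250 before the start and 50 from it on) were matched for 8 of the 10 genes, Ier2 and Zfp36l2 being without one in the table used. The full CRE was in Btg2 alone of these 8, and in 1.79% of 32851 windows of all genes and 2.90% of the 14651 windows of tested genes. A half-site, which every full CRE contains on both strands, was in Btg1 and Btg2, in 20.8% of all windows and in 29.3% of those of tested genes. The CArG box was in Zfp36 alone of the 8, at -58, and in 1.63% of all and 1.30% of tested windows; TATAAA was in Btg1 and Zfp36l1 (13.6% of all and 7.45% of tested windows). GC boxes (GGGCGG) were in 7 of the 8, against 35.7% of all windows and 60.1% of tested ones, and CCAAT boxes in 7 of the 8, against 37.4% and 37.1%, with both strands searched. The RefSeq starts differ from the GENCODE gene ends, and that of Zfp36 lies inside its GENCODE span. A match to these letters is a description and not a binding site.

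**Figure D1:**
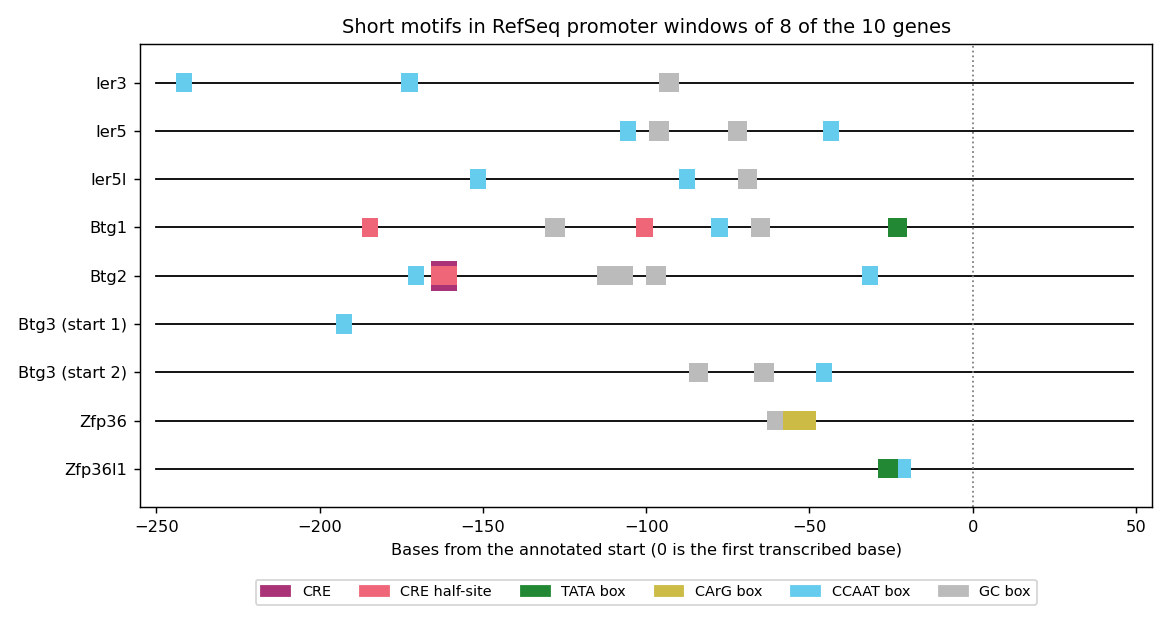
Positions of 6 short motifs (coloured boxes) in the RefSeq promoter windows of 8 genes, in bases from the annotated start; Btg3 has 2 annotated starts. The CRE lies in Btg2 alone and half-sites in Btg2 and Btg1 alone among these windows.

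Btg2 changed most of the 10 genes. It lies at chr1:134075170-134079120 (GRCm38, minus strand, 2 exons) and encodes an adaptor known as an early target of growth factor, p53 and activity signals. Its level with DMSO was 88.9, 46.8 and 47.8 CPM, and with forskolin 359.7, 374 and 238 CPM (values are given in the order of libraries 1 to 3 and 4 to 6 here and below). Every treated library stood clear of every control, and library 6, the lowest of the treated, was still 2.67 times the highest DMSO library. The means were 61.2 ± 24.0 and 324 ± 74.7 CPM (SD, n = 3), and the log2 fold change was 2.404 ± 0.317 (SE; edgeR quasi-likelihood test, adjusted p = 0.0314 by Benjamini-Hochberg over all tested genes). Library 6, with 25.1 CPM of microglia markers, gave 1.99 on the log2 scale when set alone against the DMSO libraries, which was not called (edgeR adjusted p = 0.0768, with the spread taken from the DMSO libraries). Libraries 4 and 5 alone gave 2.57 (edgeR adjusted p = 0.00349).

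Btg1, at chr10:96617006-96622809 (plus strand, 2 exons), is the closest relative of Btg2 and is better known as a gene of resting cells. It had 22.6, 22.3 and 18.8 CPM with DMSO and 39.4, 35.8 and 40.5 CPM with forskolin. Its values were tight in both groups, and it was the only one of the 10 genes for which library 6 was not the lowest treated library. The means were 21.2 ± 2.11 and 38.6 ± 2.42 CPM (SD, n = 3), which is 0.86 ± 0.12 on the log2 scale (SE; edgeR adjusted p = 0.0371). Without library 6 it was 0.81 (edgeR adjusted p = 0.00605) and with library 6 alone 0.97 (0.0709). Transcripts low in GC content were higher with forskolin across the table (rank correlation between GC content and log2 fold change over genes, Spearman's rho = -0.515), and the longest transcript of Btg1 has a GC content of 43.1%, against a median of 49.5% over tested genes and 49.7% for Btg2. With each library's trend on GC content removed, the log2 fold change of Btg1 was 0.54 (edgeR adjusted p = 0.370) and that of Btg2 2.34 (0.0924); edgeR called 0 of all genes there, with 1779 at an unadjusted p-value under 0.05. Its annotated pseudogenes Btg1-ps1 and Btg1-ps2 were listed with 0 counts in all 6 libraries.

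Neither call held without any one of libraries 1 to 5, where edgeR called 0 genes of the whole table; the unadjusted p-value was under 0.05 for 1945 to 3216 genes there. Over those 5 fits the log2 fold change ran from 2.24 to 2.79 for Btg2 and from 0.77 to 0.94 for Btg1. With library size in place of TMM factors, Btg1 had a log2 fold change of 0.75 and an adjusted p from edgeR of 0.0611.

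Btg3 is a more distant member, with known roles downstream of p53 and E2F. It lies at chr16:78332637-78377192 (minus strand, 4 exons) and overlaps Cxadr on the other strand and Gm49590, an unclassified gene, on its own. The deposited counts for it were very low, with 8, 14 and 12 counts with DMSO and 37, 23 and 10 with forskolin. Libraries 4 and 5 were the highest and library 6 lay among the controls (log2 fold change 0.76, SE 0.46; adjusted p = 0.357 by edgeR). Without library 6 the log2 fold change was 1.05 (edgeR adjusted p = 0.0692), and with library 6 alone -0.18 (0.905); without library 4 it was 0.48 (0.710). Btg3 is known as a widely expressed gene, and whether the assignment of reads to genes missed some of its transcripts was not tested, so its counts need not reflect its abundance. At these counts, counting error adds to the spread between cultures.

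**Figure D2:**
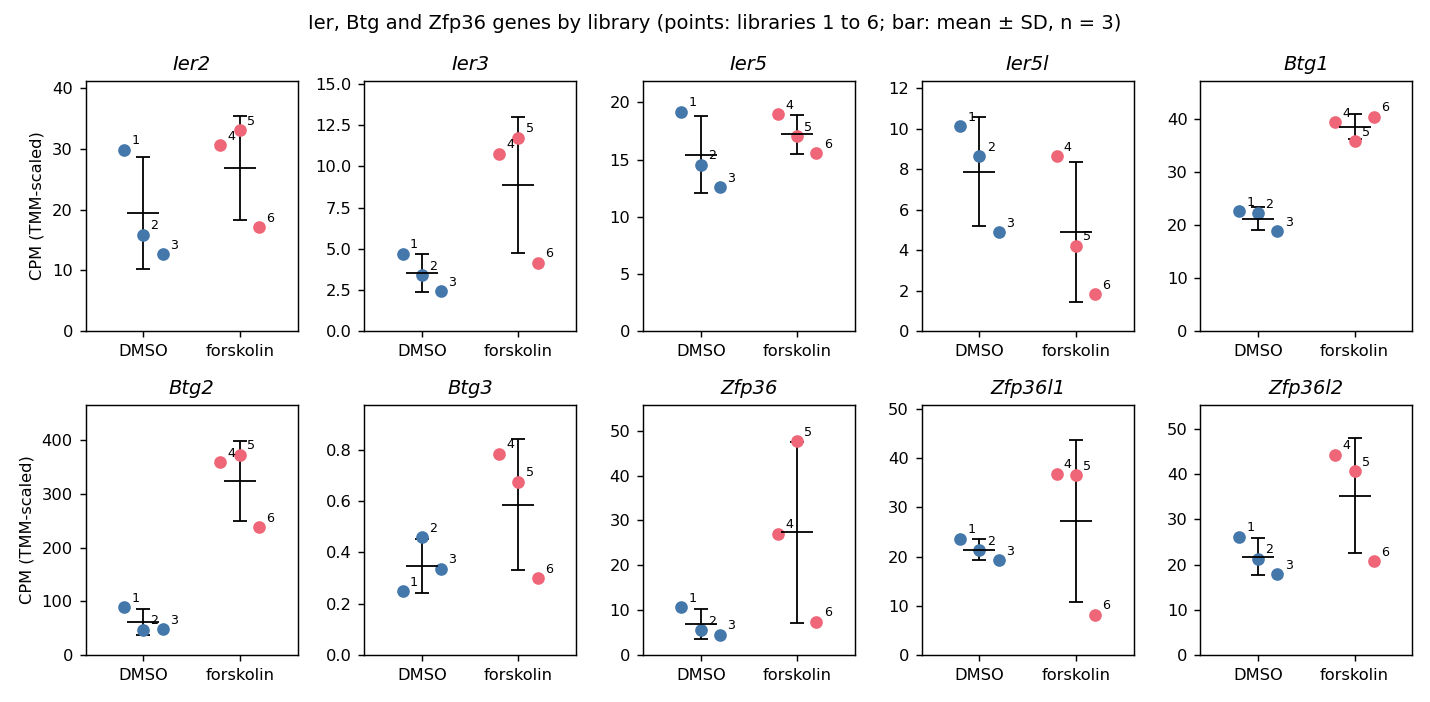
TMM-scaled CPM of each of the 10 genes in each library (numbered points), with the mean and SD of each group of 3; each panel has its own axis from 0. Btg1 and Btg2 separate the groups completely, whereas library 6 falls among or below the DMSO libraries for the other 8 genes.

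The 3 Zfp36 genes shared another pattern: high in libraries 4 and 5 and not in library 6. Zfp36 (tristetraprolin), at chr7:28376784-28380253 (minus strand, 2 exons), is the founding member, best known for limiting tumour necrosis factor mRNA in myeloid cells. It had 10.7, 5.45 and 4.52 CPM with DMSO and 27.02, 47.6 and 7.38 CPM with forskolin. Libraries 4 and 5 were well above all controls, while library 6 was below DMSO library 1. The means were 6.88 ± 3.32 and 27.3 ± 20.1 CPM (SD, n = 3), and a log2 fold change of 1.99 ± 0.67 (SE) was not called (edgeR adjusted p = 0.166). Without library 6 it was 2.42 (edgeR adjusted p = 0.00816), and with library 6 alone 0.14 (0.905). DESeq2 on all 6 libraries called it, with a log2 fold change of 1.998 and an adjusted p of 0.0127.

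Zfp36l2, at chr17:84183931-84187947 (minus strand, 2 exons), has known roles in lymphocyte development and oocytes. It had 26.2, 21.3 and 17.9 CPM with DMSO and 44.3, 40.7 and 20.7 CPM with forskolin, so that libraries 4 and 5 stood above the controls and library 6 among them (log2 fold change 0.70, SE 0.30; adjusted p = 0.230 by edgeR). Zfp36l1, at chr12:80107754-80113013 (minus strand, 2 exons), a widely expressed relative with known roles in vascular and lymphoid development, had 23.6, 21.3 and 19.3 CPM with DMSO and 36.8, 36.6 and 8.21 CPM with forskolin. Here library 6 was below every control, and the fitted log2 fold change was 0.35 ± 0.51 (SE; edgeR adjusted p = 0.707). Without library 6 the values were 0.95 for Zfp36l2 (edgeR adjusted p = 0.00925) and 0.76 for Zfp36l1 (0.00635), and with library 6 alone they were -0.03 (0.952) and -1.34 (0.0599). The value of Zfp36l1 was 0.063 without library 4 and 0.11 without library 5, neither of them called. Libraries 4 and 5, where the Zfp36 genes were high, are those with 227 and 377 CPM of microglia markers; the part of that difference in these results was not tested. Each of the 3 overlaps an annotated noncoding gene on the other strand (Gm44710, Gm26669 and AC132455.1), and since the strand setting of the counting is not given in the sources used here, reads of such partners cannot be told apart from theirs.

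The 3 Zfp36 transcripts also carry the letters their own proteins are known to bind. The nonamer TTATTTATT was found in the 3′ untranslated region of all 3 and of none of the other 7 genes, against 8.29% of 13748 tested genes with an annotated 3′ untranslated region. The sites are shown as 25 bases of the GENCODE M21 transcript with the nonamer in capitals, from 581, 1396 and 813 bases after the stop codon.
Zfp36: tgacgactTTATTTATTgtattaag
Zfp36l1: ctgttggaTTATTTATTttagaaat
Zfp36l2: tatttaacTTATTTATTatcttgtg
The shorter core TATTTAT was in these 3 transcripts (3 copies each), in Ier3 (4 copies within 613 bases) and in Btg2 (1 copy), that is in 5 of 10 genes against 30.7% of the tested genes. The number of copies did not follow length among these genes: the 3′ untranslated region of Btg1, the longest here with 4166 bases, held 0, and the median length over tested genes was 1184 bases.

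Among the Ier genes none was called. Ier3, at chr17:35821684-35822923 (plus strand, 2 exons), had 4.72, 3.41 and 2.41 CPM with DMSO and 10.8, 11.8 and 4.15 CPM with forskolin. Libraries 4 and 5 exceeded all controls, and library 6 lay between DMSO libraries 1 and 2 (log2 fold change 1.34, SE 0.44; adjusted p = 0.163 by edgeR). Without library 6 the log2 fold change was 1.66 (edgeR adjusted p = 0.00821), with library 6 alone 0.28 (0.747), and DESeq2 on all libraries gave 1.35 (adjusted p = 0.0292). As for the Zfp36 genes, the part of the microglia difference was not tested.

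Ier2, at chr8:84661331-84662852 (minus strand, 1 exon), is among the classic genes induced by serum and by neuronal activity. It had 29.9, 15.8 and 12.6 CPM with DMSO and 30.6, 33.1 and 17.1 CPM with forskolin. Libraries 4 and 5 were just above DMSO library 1, the highest control, and the groups overlapped because library 6 lay below it (means 19.5 ± 9.18 and 26.9 ± 8.56 CPM (SD, n = 3); log2 fold change 0.47, SE 0.38; adjusted p = 0.484 by edgeR). Without library 6 the log2 fold change was 0.69 (edgeR adjusted p = 0.161), and with library 6 alone -0.15 (0.892). Without DMSO library 1 it was 0.93 (edgeR adjusted p = 0.336), and without DMSO library 3 it was 0.22 (0.786). It was also 0.93 with the GC trend removed (edgeR adjusted p = 0.348); the transcript has a GC content of 60.9%. Ier2 was called with the GC trend and library 6 both removed (log2 fold change 1.02; adjusted p = 0.0334 by edgeR) and with library quality weights in limma (0.85; adjusted p = 0.0380).

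Ier5, at chr1:155096361-155099636 (minus strand, 1 exon), was the flattest of the 10, with 19.2, 14.6 and 12.6 CPM with DMSO and 19.0, 17.0 and 15.6 CPM with forskolin. All 3 treated values lay inside the range of the controls (log2 fold change 0.16, SE 0.19; adjusted p = 0.645 by edgeR). The log2 value was 0.21 without library 6 and 0.05 with library 6 alone. It was 0.36 without DMSO library 1, 0.016 without DMSO library 3 and 0.079 without library 4, and was not called in any of these fits. Ier5l, at chr2:30471537-30474219 (minus strand, 1 exon), was the only one with a negative fitted change. Its values were 10.1, 8.63 and 4.88 CPM with DMSO and 8.64, 4.23 and 1.82 CPM with forskolin, and the groups overlapped through library 4 (log2 fold change -0.68, SE 0.56; adjusted p = 0.490 by edgeR). The size turned on single libraries: it was -1.38 without library 4 (edgeR adjusted p = 0.305), -0.30 without library 6 (0.590) and -2.07 with library 6 alone (0.144). Without DMSO library 1 it was -0.45 (edgeR adjusted p = 0.728). Ier5l has the highest GC content of the 10 transcripts, 63.8%, and with the GC trend removed its log2 fold change was -0.09 (edgeR adjusted p = 0.928).

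**Figure D3:**
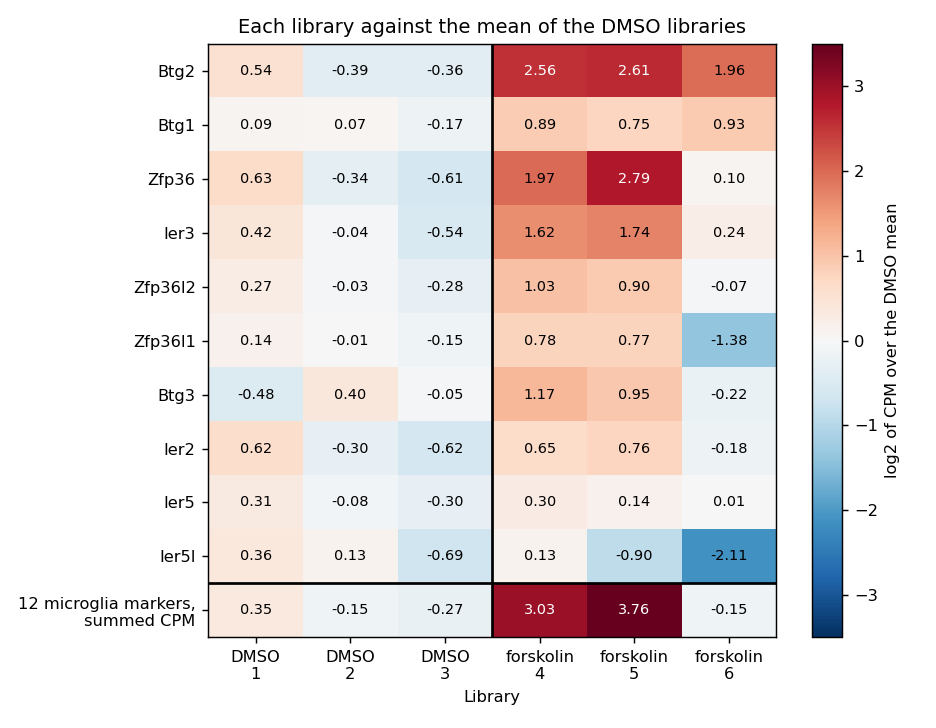
Log2 of each library's CPM over the mean of the 3 DMSO libraries, for the 10 genes and, in the last row, for the summed CPM of the 12 microglia markers. Library 6 is at 1.96 and 0.93 for Btg2 and Btg1, between -0.22 and 0.24 for 6 other genes, -1.38 for Zfp36l1, -2.11 for Ier5l and -0.15 for the microglia markers.

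Counted together, 2 of the 10 genes were called and both rose, where 0.172% of the 16233 tested genes were called higher and 1.51% were called in either direction. Groups did not overlap for the same 2 genes, both higher, against 10.3% of tested genes that were higher in every forskolin library. Before adjustment, 4 of 10 had a p-value under 0.05 (Btg1, Btg2, Ier3 and Zfp36), all higher, against 10.6% of tested genes. Fitted changes were positive for 9 of 10, with a median log2 fold change of 0.73, against 51.8% positive and a median of 0.02 over all tested genes. The libraries differed: 8 of 10 genes were above every control in library 4 (37.5% of tested genes) and 8 of 10 in library 5 (37.1%), but 2 of 10 in library 6 (29.5%). Without library 6, edgeR called 6 of 10, all higher (Btg1, Btg2, Ier3, Zfp36, Zfp36l1 and Zfp36l2), where 16.5% of tested genes were called higher and 33.6% in either direction. DESeq2 on all libraries called 4 of 10, the 4 genes with an unadjusted p-value under 0.05 in edgeR, where 4.90% of tested genes were called higher. The number of the 10 called, all of them higher, was 2 with limma-voom (background 0.148% of tested genes), with RLE factors (0.148%), with mitochondrially encoded genes removed (0.180%), with no low-count filter (0.173%) and with a mean CPM of at least 1 (0.179%). It was 1 with library size alone (0.191%), 0 with library 6 alone (0.0354%) and 0 with the GC trend removed (0%). It was 6 with library quality weights (21.0%), where Ier2 took the place of Zfp36l1 among the 6 just listed without library 6. It was also 6 with both the GC trend and library 6 removed (12.3%), where Ier2 took the place of Btg1, whose log2 fold change was then 0.37 (adjusted p = 0.112 by edgeR). DMSO library 1 was the highest control for 9 of the 10 genes, Btg3 being the exception.

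**Figure D4:**
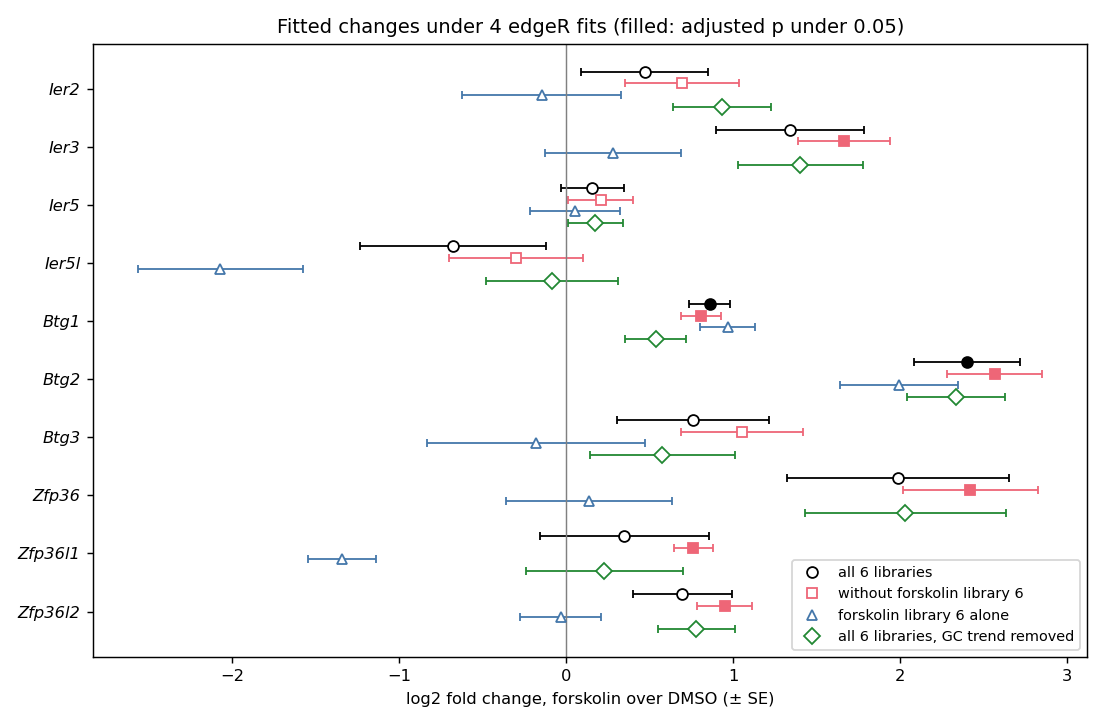
Log2 fold changes with SE (bars) for the 10 genes under 4 edgeR fits; filled symbols have an adjusted p-value under 0.05. Btg1 and Btg2 are filled with all 6 libraries, 6 genes are filled without library 6, and none is filled with library 6 alone or with the GC trend removed.

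Levels can be compared between genes only per length, here as CPM per kilobase of the longest annotated transcript. In the DMSO cultures Btg2 (22.3 ± 8.76) and Ier2 (12.8 ± 6.03; SD, n = 3) were the most abundant, and their ranges over libraries overlapped. Ier2 lay clear of the next gene, Zfp36l1 (7.16 ± 0.72). From Zfp36l1 down through Zfp36l2, Ier5, Btg1, Ier3 and Ier5l to Zfp36 (2.47 ± 1.19), each gene overlapped its neighbour in the order. Btg3 (0.116 ± 0.035) was listed far below all others, with the same doubt about its counts. With forskolin Btg2 reached 118 ± 27.2 CPM per kilobase and no longer overlapped Ier2 (17.7 ± 5.63). Neighbours from Ier2 through Zfp36l2, Zfp36, Zfp36l1 and Ier3 to Btg1 (7.72 ± 0.48) overlapped. Ier5, Ier5l and Btg3 followed, each without overlap with the gene just before it. Ier5 (4.76 to 5.80) still lay within the ranges of Zfp36, Zfp36l1 and Ier3, and Ier5l (up to 3.22) overlapped Zfp36 and Zfp36l1.

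The machinery that Btg and Zfp36 proteins work with showed no called gene, where edgeR called 1.51% of all tested genes in either direction. For lists this short, 0 calls is near that share and is not a result about the machinery. Over all tested genes 22.3% had an unadjusted p-value under 0.05 in either direction. Of the 11 CCR4-NOT subunits, all tested, edgeR called 0 higher and 0 lower, and the median log2 fold change was 0.08; 1 of them, Cnot3, had an unadjusted p-value under 0.05 (log2 fold change -0.40). The scaffold Cnot1 had 117, 103 and 108 CPM with DMSO and 114, 113 and 119.7 CPM with forskolin (log2 fold change 0.08), and the Caf1 deadenylase Cnot7, which Btg proteins bind, had a log2 fold change of 0.21 ± 0.17 (SE). Among 16 genes of deadenylation and decapping edgeR called 0, with a median of 0.08 and 2 at an unadjusted p-value under 0.05. Among 10 other AU-rich element binding proteins it called 0, with a median of -0.01 and 3 at an unadjusted p-value under 0.05. The Btg relative Tob1 had 22, 25.5 and 27.4 CPM with DMSO and 47.4, 49.4 and 26.2 CPM with forskolin, high in libraries 4 and 5 only (log2 fold change 0.72, edgeR adjusted p = 0.173). Tob2 had a log2 fold change of 0.20 (adjusted p = 0.698 by edgeR).

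Of 13 known AU-rich targets of Zfp36, 6 passed the filter. Among these, edgeR called 2 higher, against 0.172% of all tested genes, and 3 were higher in every treated library, against 10.3%. The list was chosen with earlier results of these data known, so these counts are descriptions only. Ptgs2, the inducible cyclooxygenase, had 3.81, 3.51 and 4.49 CPM with DMSO and 20.8, 24.1 and 12.4 CPM with forskolin (log2 fold change 2.28, edgeR adjusted p = 0.0297), and every treated library was above every control. Cxcl1, a chemokine, had 1.22, 0.820 and 0.842 CPM with DMSO and 5.01, 10.3 and 2.96 CPM with forskolin, also without overlap, and was not called (log2 fold change 2.66, SE 0.50; adjusted p = 0.0613 by edgeR). Fos, an immediate early transcription factor, had a log2 fold change of 2.46 (adjusted p = 0.0375 by edgeR). Of the other tested targets, Myc (log2 fold change -0.09; adjusted p = 0.831 by edgeR) and Vegfa (-0.04; 0.947) were not called. Ccl2, a chemokine, had 1.25, 0.919 and 0.281 CPM with DMSO and 2.44, 9.73 and 0.418 CPM with forskolin, overlapping through library 6 (log2 fold change 2.36, SE 1.07; adjusted p = 0.250 by edgeR). Tnf did not pass the filter. It had 6, 0 and 2 counts with DMSO and 31, 73 and 1 counts with forskolin, high in libraries 4 and 5 like Zfp36 and the microglia markers. For these targets too, the part of the microglia difference was not tested. Of the 5 kinases upstream of Zfp36, 4 were tested and edgeR called 0, with 0 at an unadjusted p-value under 0.05; Mapkapk2, which phosphorylates Zfp36, had a log2 fold change of 0.14 ± 0.12 (SE). Among 9 genes for protein phosphatase 2A subunits and Hsf1, the partners of Ier5, edgeR called 0, with a median of -0.10 and 0 at an unadjusted p-value under 0.05. Prmt1, an arginine methyltransferase known to bind Btg1 and Btg2, had at most 5 counts in any library and was not tested; it too is known as a widely expressed gene, so the doubt raised for Btg3 holds for it.

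The genes whose log2 CPM followed a member most closely over the 6 libraries were named by Pearson's r among the 13437 tested genes whose mean count reached 50. For Btg2 they were Dusp1 (r = 0.9985), Fos (0.9957) and Fosb (0.9948), each of which was called higher. Dusp1, a MAP kinase phosphatase, had 37.9, 22.9 and 22.5 CPM with DMSO and 180.2, 185 and 112 CPM with forskolin, a profile that keeps the raised DMSO library 1 and the lower library 6 of Btg2. For Zfp36 they were AF251705 (0.9959), Ercc6l (0.9944) and Med12 (0.9939), and 317 genes had an r above 0.95, compared with 61 for Btg2. For Ier2 they were Ctns (0.9890), Adm (0.9859) and Selenbp1 (0.9851), none of them called. Among the members themselves, Ier3 and Zfp36 had the highest r (0.981), Ier3 and Zfp36l2 followed (0.980), and Btg1 and Btg2 had 0.943. These coefficients rest on 6 libraries that share the difference of library 6 and are descriptions only.

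Of the 10 genes, 2 are listed in the authors' deposited table of 132 genes. In the authors' deposited table Btg2 has a log2 fold change of 2.28 with a standard error of 0.247 and an adjusted p of 1.52e-17. Zfp36 has 2.02 with a standard error of 0.305 and an adjusted p of 4.53e-09 in the authors' deposited table. The smallest log2 fold change in the authors' deposited table is 1.501, and no other member reached that size in the edgeR fit. The DESeq2 fit to the 6 deposited columns gave standard errors of 0.31 for Btg2 and 0.60 for Zfp36.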

How the data were processed

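Raw read counts per gene symbol and library, in whole numbers, were deposited by the authors. The submitters' processing notes name Salmon, DESeq and GRCm38; how reads were assigned to genes, and whether strand was used, is not given in the sources used here. Per the file headers, the deposited comparison table lists for each gene its mean normalised signal, the log2 fold change and SE, a test statistic (score), and raw and adjusted p-values.

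All 6 count columns were used. Genes were filtered with filterByExpr (minimum count 10, minimum total 15), scaled by TMM and tested with edgeR 4.0.16 (glmQLFit, glmQLFTest; R 4.3.3) on the group alone, adjusted by Benjamini-Hochberg over 16233 genes with a threshold of 0.05 ("called"). The standard error is the absolute log2 fold change over the square root of F. Log2 CPM used a prior count of 2. Alternatives used DESeq2 1.42.0, limma 3.58.1, other scalings and filters, GC correction (loess, span 0.5, on the longest GENCODE M21 transcript; 97.1% of tested genes had a value) and left-out libraries. Library 6 alone was added after seeing the data. A single forskolin library is assumed to vary like the DMSO libraries. The fitting code was tested on simulated data. Total counts of 28342764 to 47548379 make counting error small beside the spread between libraries except for genes with few counts, such as Btg3.

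The members and lists were chosen with earlier results of these data known. All members were named; of the pathway lists, every called gene and Tob1, Tob2, Cnot1, Cnot7, Mapkapk2 and Tnf, plus the 3 genes most like Ier2, Btg2 and Zfp36; Cnot3, Cxcl1, Ccl2, Myc, Vegfa, Rbfox3, Dusp1's values, Prmt1 and the gene copies were added after values were seen. Cnot9 is listed under its older symbol Rqcd1. Coordinates are GENCODE M21 (GRCm38), promoters RefSeq GRCm38.p6.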

Additional observations from a re-analysis of the deposited data

How the results depend on the processing

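The number of the 10 genes called by edgeR on all 6 libraries, 2, was also 2 with limma-voom, RLE factors, mitochondrially encoded genes removed, no low-count filter and a mean CPM of at least 1. It was 4 with DESeq2, 6 with library quality weights, 1 with library size alone, 0 with the GC trend removed, 6 with that trend and library 6 removed, 0 with library 6 alone, and 0 to 6 over the fits that each leave out a single library, 6 without library 6 and 0 without any other. The same settings moved the count over all genes from 245 (28 higher, 217 lower) to 1775 with DESeq2 (796 higher, 979 lower), 6795 with quality weights (3403 higher, 3392 lower), 137 with RLE factors, 0 with the GC trend removed, 7079 with that trend and library 6 removed, 94 with library 6 alone, and 0 to 5698 over the left-out libraries; the cause was not tested. The median over all tested genes was 0.02 (log2) with TMM and -0.09 with library size alone. Btg1 and Btg2 were positive in all 17 alternatives, with adjusted p-values of 1.80e-06 to 0.370 and 4.12e-12 to 0.288. Direction was reversed with library 6 alone for Ier2 (-0.15), Btg3 (-0.18), Zfp36l1 (-1.34) and Zfp36l2 (-0.033), and for Ier5l (0.17) with the GC trend and library 6 removed. Ier5 was not called in any of its 17 alternatives. Btg3 has no value with a mean CPM of at least 1, and DESeq2 gave it no adjusted p. No paired analysis was possible because the libraries are numbered 1 to 6 across both groups.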

Other observations

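Ratios between family members within a library were chosen after the values were seen and are given without a test. They separated the groups in 2 of 4 pairs examined, with no share over other gene pairs to set beside this. Per kilobase, Zfp36 over Zfp36l1 was 0.485, 0.274 and 0.251 with DMSO (libraries 1 to 3) and 0.786, 1.40 and 0.963 with forskolin (libraries 4 to 6), so that library 6 lay with the treated libraries although its Zfp36 level lay with the controls; its Zfp36l1 level was below all controls. Btg2 over Btg1 was 7.16, 3.83 and 4.63 with DMSO and 16.6, 19.0 and 10.7 with forskolin. Zfp36 over Zfp36l2 (0.516, 0.324 and 0.320 against 0.772, 1.48 and 0.450) and Ier2 over Ier5 (3.35, 2.34 and 2.16 against 3.47, 4.17 and 2.37) overlapped through library 6.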
